A study of Homo sapiens with 18 samples.

Results

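The untreated identity of a pair of human colorectal cancer cell lines was compared by setting 3 arrays of SW480 in ethanol against 3 arrays of HCT116 in ethanol, on Illumina HT-12 expression BeadChips. Members are the named probes with a detection p under 0.05 on at least 3 of these 6 arrays. The rule kept 16375 probes of the 47323 with an identifier, and they read 12290 of the 20046 genes with a named probe. It left out 13738 named probes. At its edge, the 2060 named probes detected on exactly 3 arrays had a median level of 5.59 log2 units, and the 942 detected on exactly 2 had one of 5.28.

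The groups were SW480 cells given ethanol for 16 h and HCT116 cells given ethanol for 16 h. Ethanol was the vehicle for calcitriol, the active form of vitamin D, and the treatments were made in DMEM with charcoal-treated serum. A further 3 arrays of each line, after 50 nM calcitriol for 16 h, had no part in the choice of probes and served as a repeat of the line comparison. LS174T, another colorectal cancer line, is used for a few side values. SW480 and HCT116 are established lines from different tumours, so each stands for 1 line and not for a class of tumours. Replicates are numbered in the labels with no word on separate cultures, so the p-values measure the spread between arrays, which may be technical.

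SW480 is a microsatellite-stable line in which the Wnt pathway is switched on by loss of APC, and it carries mutant p53. HCT116 is deficient in DNA mismatch repair, carries an activating beta-catenin mutation and keeps wild-type p53. In the colon, an epithelial cell is held to its neighbours by cadherins, tight junctions and desmosomes, Wnt signalling keeps the crypt's stem cells dividing, and TGF-beta and BMP signals passed on by SMAD proteins restrain them.

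Between 19776 and 20908 probes were detected on each of the 6 arrays. Replicates of a line correlated at 0.991 to 0.993 across all probes and arrays of different lines at 0.924 to 0.928. The median SD of a gene over 3 replicates was 0.129 log2 units in SW480 and 0.124 in HCT116. The lowest level among detected probes lay between 5.39 and 5.51. Of 15 colorectal epithelial markers, 11 passed the rule. EPCAM, KRT8, KRT18, KRT19, CDH1 and CDX2 were detected on all 6 arrays, VIL1, TSPAN8 and CDH17 on the 3 SW480 arrays and no HCT116 array, KRT20 on 1 SW480 and 3 HCT116 arrays, and GPA33 on 2 arrays of each line. Of 11 fibroblast markers, SW480 had PDGFRB, COL6A3 and ACTA2 on 3 arrays and HCT116 had ACTA2. Of 12 leukocyte and endothelial markers, SW480 had CD68, HLA-DRA and CD74 on 3 arrays and HCT116 had CD68, LYZ and HLA-DRA. The summed intensity of the fibroblast markers was 992.2 to 1187 on SW480 arrays and 503 to 573.5 on HCT116 arrays, and that of the leukocyte and endothelial markers was 775.6 to 918.6 on SW480 arrays and 763 to 818.3 on HCT116 arrays.

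The lines differed at most of the genes measured. Of 12290 genes, 4435 were higher in SW480 (36.1%) and 4223 were lower (34.4%) at an adjusted p under 0.05 in the fit with limma, 8658 in all (70.4%). Differences of at least 2-fold were found at 1727 higher genes (14.1%) and 1761 lower genes (14.3%). The counts by list given below stand beside these shares of all genes. At least 8-fold differences numbered 242 higher and 270 lower, and at least 32-fold ones 55 higher and 52 lower. The 3 SW480 and 3 HCT116 values did not overlap at 8969 genes (73%). The median difference, SW480 minus HCT116, was 0.026 log2 units and the median size without sign was 0.57. With arrays scaled to equal medians instead of equal distributions, 5733 genes were higher and 2831 lower, which was 66.9% higher against 51.2% here, and the median of all genes moved to 0.279.

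**Figure D1:**
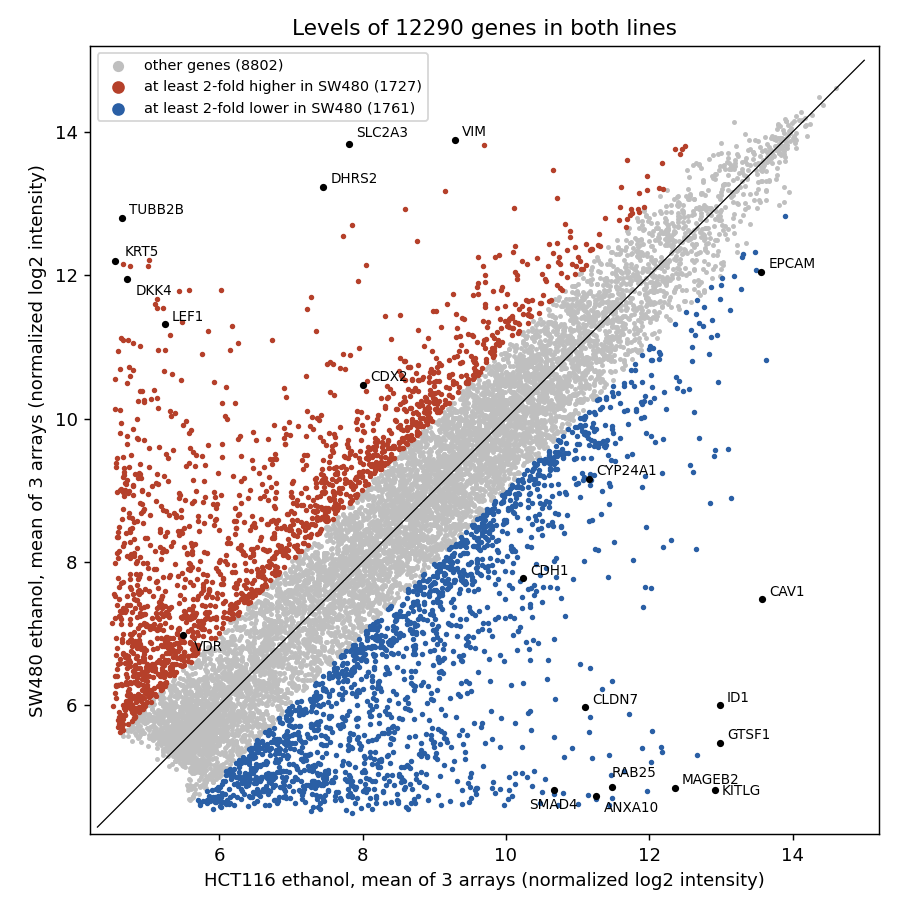
Mean normalized log2 intensity of 12290 genes in SW480 ethanol (vertical axis, 3 arrays) and HCT116 ethanol (horizontal axis, 3 arrays). Points are genes, red for the 1727 at least 2-fold higher in SW480, blue for the 1761 at least 2-fold lower, and black for those labelled. Points along the left edge are genes near background in HCT116 and those along the lower edge genes near background in SW480.

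Some genes were read in only 1 line. On all 3 SW480 arrays and no HCT116 array, 614 genes were detected, and 545 were detected on all 3 HCT116 arrays and no SW480 array. These genes entered the comparison through 1 line, so their difference follows from the rule and their number is a description. A fold for such a gene is a lower bound and is given with no p. In a count added after seeing the data, over the 11131 genes detected on at least 1 array of each line, 11.3% were at least 2-fold higher and 12% at least 2-fold lower. Where only 1 or 2 arrays of a line detected a gene, its reading there lay near background, so the printed difference depends on that background and its rank is a description. If all 3 arrays of the other line detected it, that line alone was enough to pass the rule. The difference of such a gene is given with no p from the main comparison. The counts below over genes detected in both lines include such genes, so they remove this selection only in part. Of the 614, 163 (26.5%) were also detected on all 3 LS174T ethanol arrays, as were 216 (39.6%) of the 545. The bound reached at least 8-fold at 101 of the genes detected in SW480 and at 89 of those detected in HCT116.

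TUBB2B, a beta-tubulin of developing neurons, was at least 166-fold higher in SW480. Its levels were 12.76, 12.72 and 12.93 log2 units in SW480, and it was not detected on any HCT116 array. KRT5, the keratin of basal squamous cells, read 12.15, 12.25 and 12.19 in SW480 and was undetected in HCT116 and LS174T, at least 109-fold higher in SW480. Further genes seen in SW480 alone of the pair were the cyclin CCND2 (at least 106-fold), the neuronal pentraxin NPTX2 (at least 104-fold), the forkhead factor FOXQ1 (at least 103-fold), the secreted protein NELL2 (at least 69-fold) and the growth factor carrier IGFBP4 (at least 51.6-fold). CCND2, FOXQ1 and IGFBP4 were detected on all 3 LS174T arrays too, at means of 12.33, 11.97 and 10.66, whereas NPTX2 and NELL2 were detected on none.

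In the other direction, KITLG, the ligand of the KIT receptor, was at least 181-fold lower in SW480. It was undetected in SW480 and read 12.71, 13.10 and 12.93 in HCT116, and its other probes differed by -7.96 and -4.81. MAGEB2, a gene normally confined to testis, was at least 123-fold lower in SW480, where it was undetected, and read 12.39, 12.37 and 12.30 in HCT116. The actin-binding calponin CNN3 was at least 94-fold lower, the thymosin TMSB15A at least 75.4-fold, DDIT4L, an inhibitor of mTOR signalling, at least 67.3-fold, the collagen lysyl hydroxylase PLOD2 at least 66.3-fold (its other probes differed by -3.82 and -1.69), the vesicle cargo protein TMED3 at least 65.3-fold and the annexin ANXA10 at least 57.6-fold. CNN3, PLOD2 and TMED3 were detected in LS174T, at means of 10.17, 9.67 and 12.02, and TMSB15A, DDIT4L and ANXA10 were not.

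Among genes detected on at least 1 array of each line, EDAR, the receptor for ectodysplasin, had the highest printed difference. It read 11.55, 11.85 and 11.59 in SW480, against 4.99, 4.89 and 5.52 in HCT116, where 1 array detected it (difference 6.53 ± 0.14, SE). TXNIP, a binding partner of thioredoxin that limits glucose uptake, differed by 6.49 ± 0.20 (SE), with 1 HCT116 array detecting it. SLC2A3, a glucose transporter, read 13.85, 13.79 and 13.83 in SW480, against 7.80, 7.92 and 7.69 in HCT116, and its difference was 6.02 ± 0.11 (SE). DHRS2, a short-chain dehydrogenase, differed by 5.79 ± 0.10 and PRF1, the perforin of cytotoxic lymphocytes, by 5.77 ± 0.16 (SE), both detected on all 6 arrays. RAB34, a small GTPase detected on 1 HCT116 array, differed by 5.85 ± 0.22, and QPCT, an enzyme that cyclises N-terminal glutamine, detected on 2, by 5.87 ± 0.16 (SE).

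The lowest printed difference was that of GTSF1, a small RNA pathway gene of germ cells. Its levels were 5.62, 5.25 and 5.56 in SW480, where 2 arrays detected it, against 12.96, 13.02 and 12.98 in HCT116 (difference -7.51 ± 0.15, SE). Detected on 1 SW480 array each, ADIRF, a gene of fat cell differentiation, differed by -7.36 ± 0.14 (SE), and NECTIN3, an adhesion protein that works beside the cadherins, by -6.83 ± 0.16. ACSL5, which activates fatty acids, differed by -6.75 ± 0.11 and GSTO2, a glutathione transferase, by -6.49 ± 0.22, each again detected on 1 SW480 array, and other ACSL5 probes differed by -2.62 to -6.40. HS3ST1, a heparan sulfate sulfotransferase detected on 2 SW480 arrays, differed by -5.94 ± 0.19 (SE). CAV1, the coat protein of caveolae, read 7.32, 7.73 and 7.38 in SW480, against 13.65, 13.53 and 13.54 in HCT116, and its difference was -6.10 ± 0.15 (SE). In LS174T, CAV1 had a mean of 5.79.

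Genes of epithelial junctions were lower in SW480. Of 14 measured genes of cadherins, claudins and tight junctions, 9 were lower and 1 higher, with 7 lower and none higher by at least 2-fold, beside 14.3% and 14.1% of all genes. Their median difference was -1.07 log2 units, against 0.03 for all genes. Over the 13 detected in both lines, 6 were at least 2-fold lower, none higher, and the median was -0.58. CDH1, the E-cadherin of adherens junctions, read 7.85, 7.81 and 7.65 in SW480, against 10.27, 10.24 and 10.19 in HCT116 (difference -2.46 ± 0.09, SE, adjusted p = 4.3e-13). CDH3, P-cadherin, read 6.65, 6.45 and 6.46 in SW480, against 11.05, 11.28 and 11.19 in HCT116 (difference -4.65 ± 0.11, SE). No value of either cadherin overlapped between the lines. CLDN7, a claudin of tight junctions, read 5.93, 5.99 and 5.98 in SW480, against 11.04, 11.14 and 11.13 in HCT116 (difference -5.13 ± 0.08, SE, adjusted p = 1.09e-17). MARVELD3, another tight junction membrane protein, was undetected in SW480 and at least 9.87-fold lower there, and its other probes differed by -2.0 and -1.6.

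CRB3, a polarity protein of the apical membrane, read 5.86, 5.05 and 5.53 in SW480, where 2 arrays detected it, against 9.91, 9.65 and 9.58 in HCT116 (difference -4.24 ± 0.18, SE). RAB25, a GTPase of apical recycling, was undetected in SW480 and read 11.38, 11.56 and 11.49 in HCT116, so it was at least 67-fold lower in SW480. LAD1, a filament protein of epithelial basement membranes, read 5.77, 5.02 and 5.13 in SW480, where 1 array detected it, against 11.47, 11.40 and 11.47 in HCT116 (difference -6.14 ± 0.16, SE). All 3 genes were high in LS174T, with means of 10.05 for CRB3, 11.35 for RAB25 and 12.86 for LAD1.

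Desmosomes, which anchor keratin filaments between cells, had 6 lower and 1 higher of 8 measured genes, with 4 lower and 1 higher by at least 2-fold and a median difference of -1.57. Over the 7 detected in both lines, 4 were lower and 1 higher by at least 2-fold. DSC2, DSC3 and DSG2 lie in 1 stretch of 25 neighbouring genes on chromosome 18, of which 21 were lower and 1 higher (median -1.21). DSC2, a desmocollin, read 5.53, 5.64 and 5.06 in SW480, where 2 arrays detected it, against 10.34, 10.16 and 10.16 in HCT116 (difference -4.81 ± 0.17, SE), and other probes differed by -3.77 for DSC2 and -1.13 for the desmocollin DSC3. DSG2, a desmoglein, read 9.73, 9.93 and 9.46 in SW480, against 12.07, 12.28 and 12.24 in HCT116 (difference -2.49 ± 0.11, SE). JUP, the plakoglobin of the inner plaque, differed by -2.22 ± 0.10, DSC3, detected on 2 SW480 arrays, by -2.74 ± 0.21 and PERP, a membrane protein of desmosomes, by -0.92 ± 0.13. The plakophilin PKP2 went the other way, with 9.96, 10.14 and 9.95 in SW480, against 7.89, 8.15 and 8.14 in HCT116 (difference 1.96 ± 0.09, SE). The plaque protein DSP differed by 0.01 ± 0.08 (adjusted p = 0.922), and by 0.41 (adjusted p = 0.00239) with median scaling. The plakophilin PKP3, among the 6 lower, was undetected in SW480, so its direction follows from the rule. It was at least 1.12-fold lower there, and its call was lost with no filter on detection.

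Promoters of 4 of these genes, all lower in SW480, are printed as examples picked by hand. Each holds 2 or more copies of the E-box letters CAGGTG or, on the opposite strand, CACCTG. Repressors of epithelial genes of the SNAI and ZEB families are known to bind these letters. RAB25 and LAD1 are outside the junction and desmosome lists. The array data do not bear on binding. Sequences are from RefSeq (GRCh38.p14), from 250 bases before to 50 after each gene's start, written 5′ to 3′ on the gene's strand with the E-box letters in capitals. CRB3 lies at chr19:6464021-6464320 on the plus strand and holds 5 copies, RAB25 at chr1:156060910-156061209 on the plus strand with 2, LAD1 at chr1:201399275-201399574 on the minus strand with 2, and DSG2 at chr18:31497927-31498226 on the plus strand with 2.
CRB3: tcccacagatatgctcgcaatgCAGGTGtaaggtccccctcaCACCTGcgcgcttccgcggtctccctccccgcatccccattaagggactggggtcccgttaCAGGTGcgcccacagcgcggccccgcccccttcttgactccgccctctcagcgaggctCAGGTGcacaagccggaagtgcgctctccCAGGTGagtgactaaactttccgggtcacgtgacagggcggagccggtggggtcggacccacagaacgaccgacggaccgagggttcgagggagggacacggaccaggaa
RAB25: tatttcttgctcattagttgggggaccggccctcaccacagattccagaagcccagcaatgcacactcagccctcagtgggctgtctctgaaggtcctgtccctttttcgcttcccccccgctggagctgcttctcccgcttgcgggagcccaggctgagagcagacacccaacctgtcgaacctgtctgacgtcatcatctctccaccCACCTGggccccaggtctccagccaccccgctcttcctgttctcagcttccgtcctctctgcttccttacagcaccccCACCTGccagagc
LAD1: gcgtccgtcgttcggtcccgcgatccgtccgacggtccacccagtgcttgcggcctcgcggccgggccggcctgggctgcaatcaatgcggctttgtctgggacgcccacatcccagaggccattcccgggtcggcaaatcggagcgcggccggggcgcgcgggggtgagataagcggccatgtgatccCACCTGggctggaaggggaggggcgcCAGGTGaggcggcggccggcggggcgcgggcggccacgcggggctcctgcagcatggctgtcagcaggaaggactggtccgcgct
DSG2: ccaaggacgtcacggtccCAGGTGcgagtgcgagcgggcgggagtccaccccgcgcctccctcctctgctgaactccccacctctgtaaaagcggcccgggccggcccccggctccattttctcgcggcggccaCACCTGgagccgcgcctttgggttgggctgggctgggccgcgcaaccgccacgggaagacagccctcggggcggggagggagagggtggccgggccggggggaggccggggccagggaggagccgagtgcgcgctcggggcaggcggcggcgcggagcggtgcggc
The letters occurred in 6 of the 15 promoters found for the junction and desmosome lists (40.0%). They occurred in 18.4% of the 9784 promoters of tested genes and in 20.6% of all 34961 promoters of the table. DSP, whose level differed by 0.01, also holds 2 copies and is not printed. CLDN7, with a difference of -5.13, and JUP, with one of -2.22, hold none. These counts are descriptions of letters in a window, not of sites.

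**Figure D2:**
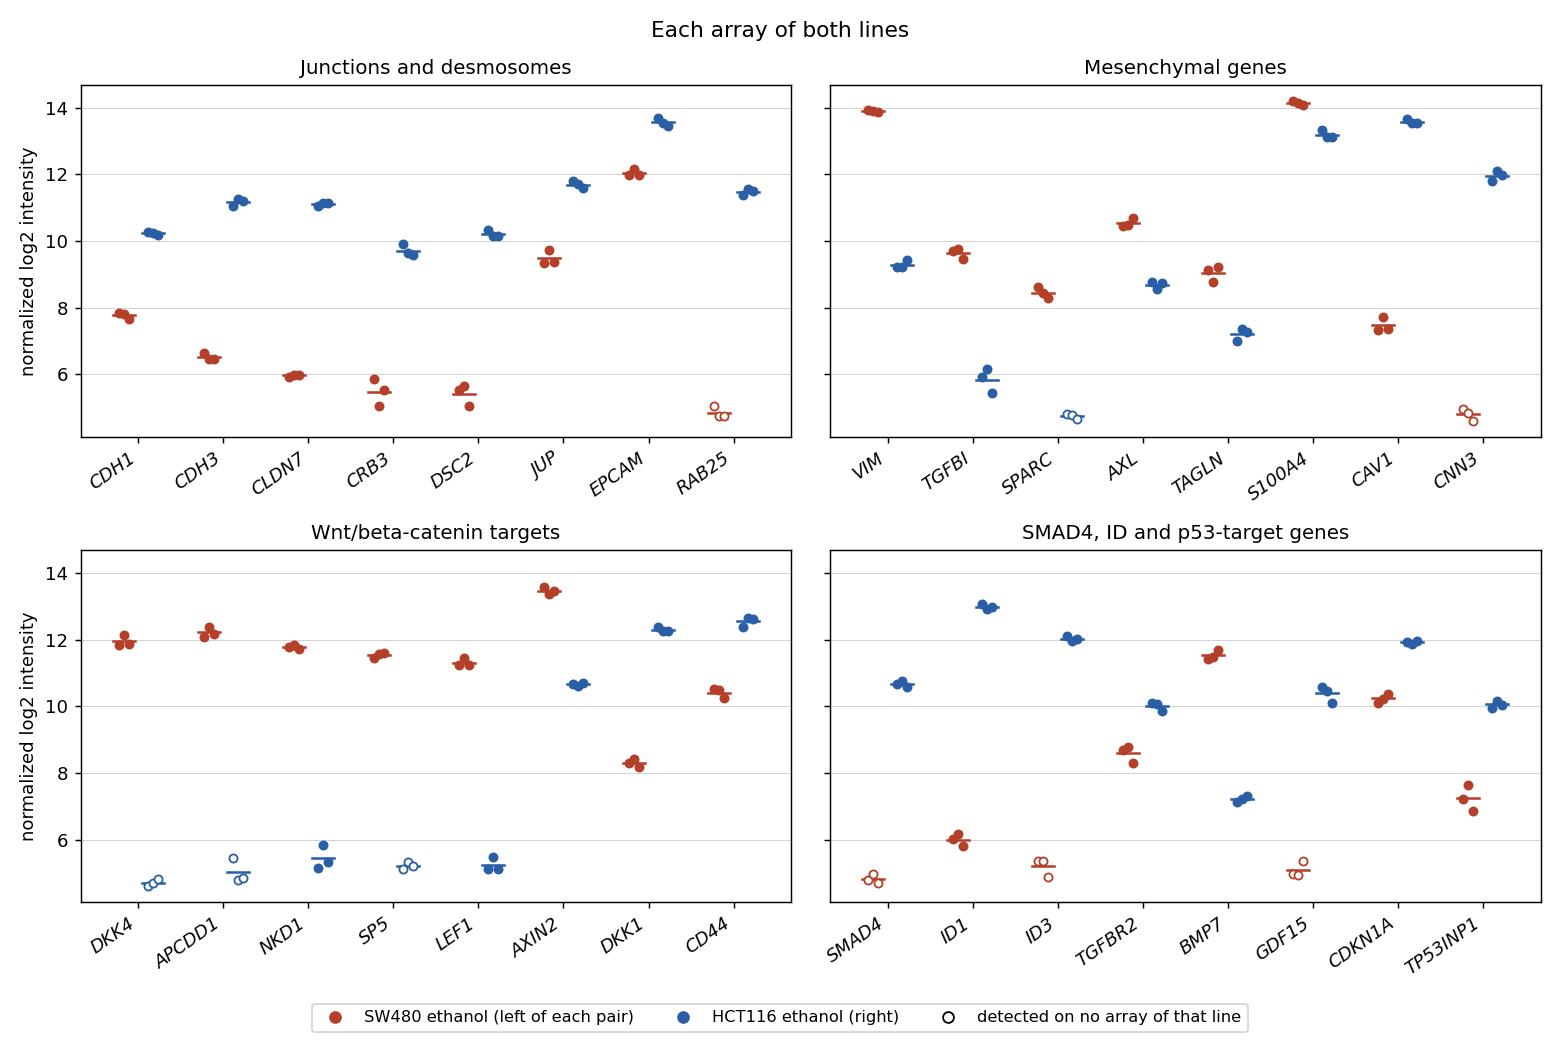
Normalized log2 intensity of named genes on each array, with SW480 ethanol left of HCT116 ethanol, in panels for junctions and desmosomes, mesenchymal genes, Wnt/beta-catenin targets, and SMAD4, ID and p53-target genes. Each point is 1 of 3 arrays, each bar a mean, and open points mark a gene detected on no array of that line. CDH1 lay at 7.65 to 7.85 in SW480 and 10.19 to 10.27 in HCT116, and VIM at 13.87 to 13.92 in SW480 and 9.21 to 9.44 in HCT116.

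Mesenchymal genes went both ways over all 12 measured. Of these, 7 were higher and 5 lower in SW480, with 5 higher and 3 lower by at least 2-fold. The median difference was 0.82, but 5 of the 12 were detected in 1 line alone, 2 in SW480 and 3 in HCT116. Over the 7 detected in both lines, 5 were higher and 2 lower. By at least 2-fold, 4 of the 7 were higher and none lower, and their median was 1.83. VIM, the intermediate filament vimentin, read 13.92, 13.89 and 13.87 in SW480, against 9.21, 9.22 and 9.44 in HCT116 (difference 4.60 ± 0.10, SE, adjusted p = 3.67e-16), and its second probe differed by 7.12. TGFBI, a matrix protein induced by TGF-beta, read 9.69, 9.75 and 9.46 in SW480, against 5.91, 6.16 and 5.44 in HCT116 (difference 3.80 ± 0.16, SE). SPARC, a matrix glycoprotein, was undetected in HCT116 and at least 8.09-fold higher in SW480. The receptor kinase AXL differed by 1.84 ± 0.11 (SE). The fibroblast receptor PDGFRB read 9.80, 9.89 and 9.58 in SW480, was undetected in HCT116 and was at least 20.1-fold higher in SW480, while ACTA2, smooth muscle actin, differed by -1.45 ± 0.10 (SE). Fibroblast markers at large were mostly not detected, as given above, and their part in these values was not tested. In bulk RNA, fewer cells with a transcript and less of it per cell cannot be told apart.

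Integrins and matrix genes split evenly. Of 22 measured, 9 were higher and 9 lower in SW480, and the median difference was 0.06. ITGB4, the integrin of hemidesmosomes, read 5.70, 5.82 and 6.17 in SW480, against 10.25, 10.38 and 10.29 in HCT116 (difference -4.41 ± 0.14, SE). The basement membrane collagen COL4A2 was at least 5.06-fold higher in SW480 and COL12A1 at least 3.68-fold lower, though its other probe differed by -0.55. THBS1, thrombospondin, detected on 1 HCT116 array, differed by 1.93 ± 0.15 (SE).

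Keratins went both ways. Beside KRT5, KRT80 was higher by 2.73 ± 0.12 (SE). KRT19, a keratin of simple epithelia, read 10.51, 10.47 and 10.54 in SW480, against 13.01, 12.81 and 13.05 in HCT116 (difference -2.45 ± 0.08, SE). KRT23 was undetected in SW480 and at least 8.15-fold lower. KRT8 differed by -0.06 ± 0.09 (adjusted p = 0.615). Its partner KRT18 differed by 1.03 ± 0.14 at the brighter probe and by -0.63 at the other, and the mean of its probes differed by 0.20 (adjusted p = 0.131).

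Markers of intestinal identity did not share a direction. Of 11 measured genes of colorectal epithelial identity, 5 were higher and 3 lower in SW480, each by at least 2-fold, and the median difference was -0.06. Of the 11, 3 were detected in SW480 alone, so their direction follows from the rule. Over the 8 detected in both lines, 2 were higher and 3 lower by at least 2-fold, with a median of -0.19. KRT18, among these 2 higher genes, had another probe in the other direction, as given above. CDX2, the homeobox factor that sets intestinal fate, read 10.43, 10.63 and 10.35 in SW480, against 8.13, 7.90 and 8.01 in HCT116 (difference 2.46 ± 0.11, SE, adjusted p = 6.74e-12). VIL1, the villin of microvilli, TSPAN8, a tetraspanin, and CDH17, an intestinal cadherin, were undetected in HCT116, and were at least 1.97-, 5.89- and 2.15-fold higher in SW480. EPCAM, an epithelial adhesion protein, read 11.99 to 12.15 in SW480, against 13.46 to 13.69 in HCT116 (difference -1.52 ± 0.09, SE).

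Transcription factors of the intestinal epithelium were mostly lower, with 8 lower and 3 higher of 12 measured, 6 lower and 2 higher by at least 2-fold, and a median difference of -1.45. Of the 12, 5 were detected in 1 line alone, and over the other 7 the counts by 2-fold were 3 lower and 1 higher. GRHL2, a factor that maintains epithelial junction genes, read 8.45, 8.40 and 8.58 in HCT116 and was undetected in SW480, at least 8.39-fold lower there. The epithelial ETS factors EHF and ELF3 were also lower, EHF by at least 7.17-fold and ELF3 by a difference of -2.89 ± 0.14 (SE). KLF4, a factor of differentiated colon cells, read 6.17, 6.40 and 6.44 in SW480, against 9.50, 9.47 and 9.34 in HCT116 (difference -3.10 ± 0.15, SE), while its other probe differed by -0.78. SOX9, a crypt factor, differed by -0.73 ± 0.10.

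Enterocyte markers had 6 higher and 2 lower of 10 measured, with a median difference of 1.19, but 6 of the 10 were detected in 1 line alone. One of the higher genes, the guanylin gene GUCA2A, was undetected in HCT116, so its direction follows from the rule. It was at least 1.17-fold higher in SW480, and its call was lost without SW480 replicate 1, HCT116 replicate 1 or HCT116 replicate 2. CEACAM1, an adhesion molecule of the brush border, read 8.66, 8.95 and 8.54 in SW480, against 5.35, 4.93 and 5.49 in HCT116, where 1 array detected it (difference 3.46 ± 0.15, SE), and its other probes differed by 3.14 and 1.67. Carbonic anhydrases split, CA12 being higher by 2.65 ± 0.19 (SE) and CA2 undetected in SW480 and at least 24.6-fold lower there, with 10.05, 10.02 and 10.02 in HCT116. The peptidase DPP4 was at least 2.86-fold lower. Among 8 goblet and secretory genes, the membrane mucin MUC13 was at least 11.9-fold higher in SW480 and FCGBP, a mucus protein, at least 7.01-fold lower. The mucin MUC2 lay near detection, at 5.52, 4.83 and 5.64 in SW480 and 5.24, 5.06 and 6.05 in HCT116, and the adjusted p of its difference was 0.683.

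Enteroendocrine and neuronal markers had 5 higher and 2 lower of 8 measured. The granin CHGB was at least 2.72-fold higher in SW480 and the neural stem cell filament NES differed by 2.03 ± 0.17 (SE). The granin SCG2 read 5.04, 5.08 and 5.53 in SW480, where 1 array detected it, against 9.28, 9.18 and 9.38 in HCT116 (difference -4.06 ± 0.23, SE).

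Targets of Wnt/beta-catenin signalling were higher in SW480. Of 22 measured, 15 were higher and 5 lower, with 14 higher and 4 lower by at least 2-fold, and the median difference was 1.65, against 0.03 for all genes. Over the 17 detected in both lines, 10 were higher and 3 lower by at least 2-fold, and the median was 1.30. DKK4, a secreted inhibitor, read 11.84, 12.15 and 11.86 in SW480 and was undetected in HCT116, at least 91.5-fold higher in SW480. APCDD1, a membrane inhibitor, read 12.09, 12.37 and 12.18 in SW480 and was also undetected in HCT116, at least 110-fold higher in SW480. NKD1, which acts on Dishevelled, read 11.79, 11.83 and 11.72 in SW480, against 5.15, 5.84 and 5.33 in HCT116, where 1 array detected it (difference 6.34 ± 0.16, SE). AXIN2, a scaffold of the beta-catenin destruction complex and a direct target, read 13.58, 13.37 and 13.47 in SW480, against 10.66, 10.61 and 10.71 in HCT116 (difference 2.81 ± 0.08, SE). Other inhibitors on the list, given after their values were seen, were NKD2 at 2.46 ± 0.07, NOTUM at 1.93 ± 0.25, ZNRF3 at 1.30 ± 0.10 and RNF43 at 0.34 ± 0.09 (SE). DKK1, another secreted inhibitor, was lower, with a mean of 8.30 in SW480 and 12.30 in HCT116 (difference -4.00 ± 0.16, SE).

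Transcription factors on the list went both ways. LEF1, a partner of beta-catenin on DNA, read 11.25, 11.44 and 11.25 in SW480, against 5.11, 5.48 and 5.14 in HCT116, where 1 array detected it (difference 6.07 ± 0.17, SE). SP5 read 11.45, 11.58 and 11.61 in SW480 and was undetected in HCT116, at least 69.2-fold higher in SW480. ASCL2, a factor of crypt stem cells, read 10.08, 9.95 and 10.08 in SW480, against 4.98, 5.68 and 5.33 in HCT116, where 1 array detected it (difference 4.71 ± 0.13, SE), and had a mean of 13.04 in LS174T. ETS2 differed by 1.47 ± 0.08 and SOX4 by -2.75 ± 0.11 (SE), both given after their values were seen. The hyaluronan receptor CD44 was lower, with 10.51, 10.49 and 10.24 in SW480, against 12.37, 12.65 and 12.63 in HCT116 (difference -2.14 ± 0.10, SE). MYC read 12.47, 12.48 and 12.50 in SW480, against 12.25, 12.36 and 12.43 in HCT116 (difference 0.14 ± 0.08, SE, adjusted p = 0.119). With median scaling the MYC difference was 0.41 (adjusted p = 0.00126).

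The promoter of SP5 is printed because it holds the most copies among the 13 promoters found for the list of the letters CTTTGA or, on the opposite strand, TCAAAG, the core bound by TCF and LEF factors. It lies at chr2:170715087-170715386 on the plus strand (RefSeq, GRCh38.p14) and holds 3 copies, in capitals.
SP5: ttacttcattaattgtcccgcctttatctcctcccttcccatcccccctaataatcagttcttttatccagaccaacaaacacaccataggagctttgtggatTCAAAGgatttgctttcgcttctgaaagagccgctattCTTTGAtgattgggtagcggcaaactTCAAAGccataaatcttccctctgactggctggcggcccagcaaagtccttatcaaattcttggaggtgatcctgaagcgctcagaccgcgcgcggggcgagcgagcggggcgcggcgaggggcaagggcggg
The core occurred in 3 of the 13 promoters (23.1%), those of SP5, DKK1 and MMP7, and in 8.8% of the promoters of tested genes. It occurred in 12.9% of all 34961 promoters of the table. Among genes detected on 3 SW480 and no HCT116 arrays, the share was 13.6%, and among those detected on 3 HCT116 and no SW480 arrays 10.8%. The share was 9.4% among genes at least 2-fold higher in SW480 and 9.0% among those at least 2-fold lower. The core was not found in the windows of APCDD1 or LEF1.

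**Figure D3:**
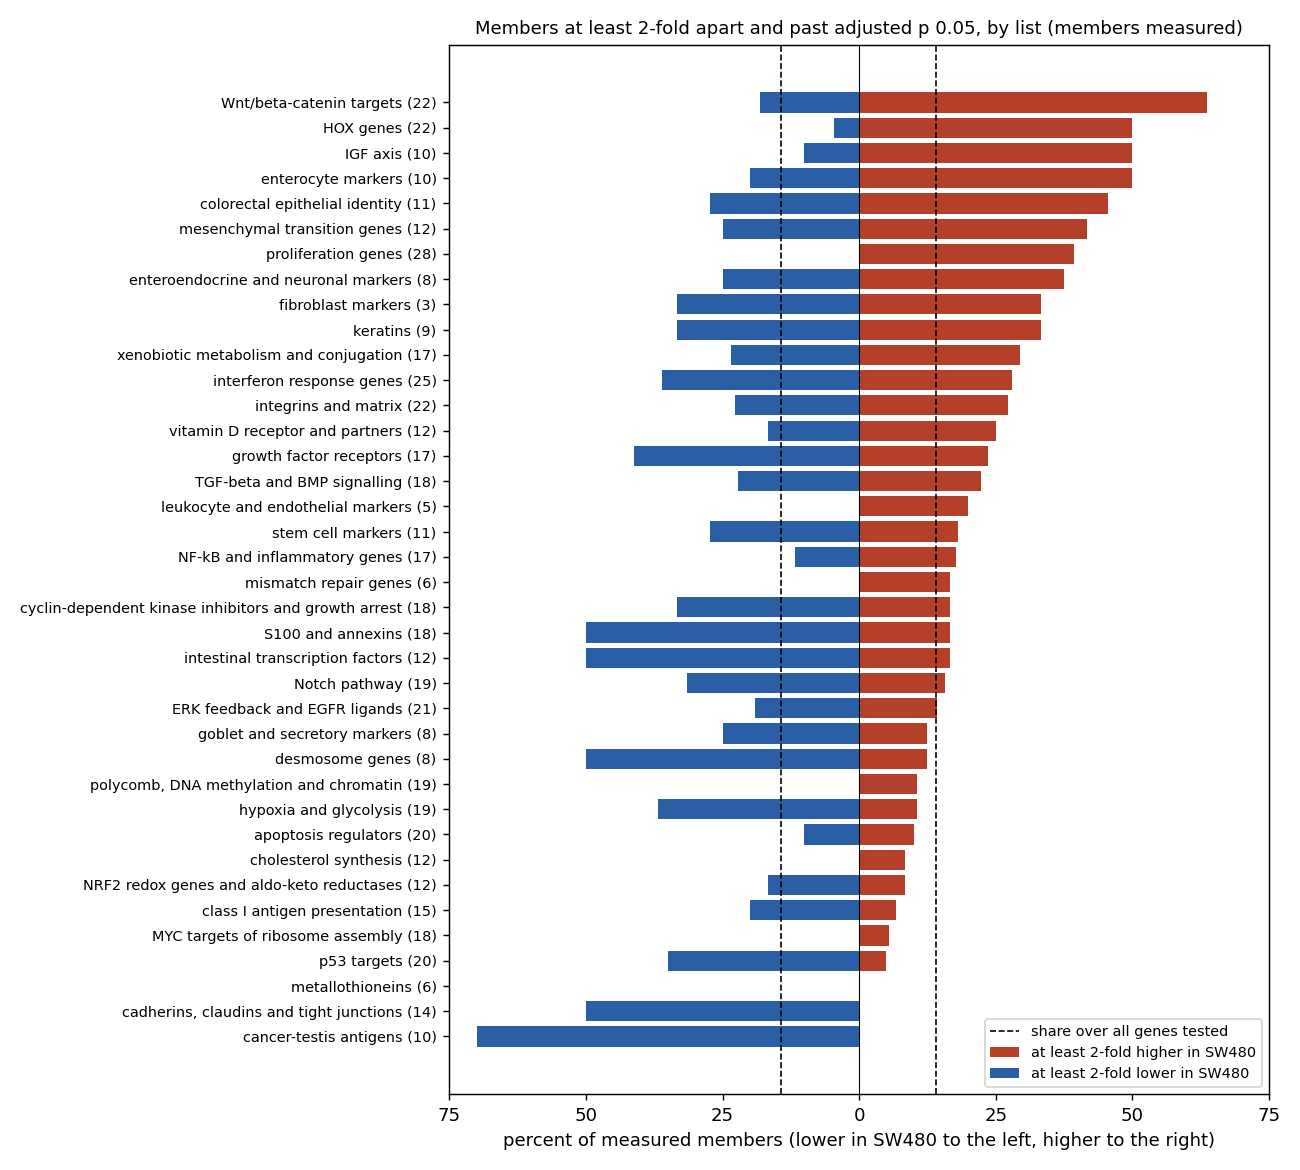
Percent of the measured genes of each list (number in brackets) that were at least 2-fold higher (red, to the right) or at least 2-fold lower (blue, to the left) in SW480 than in HCT116 and past the threshold. Dashed lines give the shares over all genes tested, 14.1% higher and 14.3% lower. The Wnt list has 14 higher and 4 lower of 22 genes, and the HOX list 11 higher and 1 lower of 22.

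Of 11 measured stem cell markers, some of them also on the Wnt list, 7 were lower and 4 higher. One of the lower genes, CD24, differed by -0.45 ± 0.10 (SE), and its other probe by 0.26. CD24 lost its call with median scaling (-0.06, adjusted p = 0.695) and over the mean of probes (-0.09, adjusted p = 0.41). PROM1, the membrane protein CD133, was undetected in SW480 and read 9.19, 9.46 and 9.51 in HCT116, at least 15.7-fold lower in SW480. ALCAM, an adhesion protein, read 6.25, 5.87 and 6.15 in SW480, against 10.62, 10.88 and 10.54 in HCT116 (difference -4.59 ± 0.17, SE). LRIG1, a brake on receptor kinases, went the other way at 3.86 ± 0.09 (SE).

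In TGF-beta and BMP signalling, 8 of 18 measured genes were lower and 7 higher, beside 34.4% and 36.1% of all genes. Their median difference was -0.02. With median scaling 4 were lower and 8 higher. SMAD4, the mediator shared by both pathways, was undetected on the SW480 arrays, where its probe read 4.80, 4.97 and 4.70, and read 10.68, 10.75 and 10.58 in HCT116, at least 38.3-fold lower in SW480. Its mean in LS174T was 10.45. The BMP targets ID1 and ID3, inhibitors of differentiation, were far lower. ID1 read 6.03, 6.18 and 5.80 in SW480, against 13.06, 12.91 and 12.99 in HCT116 (difference -6.98 ± 0.11, SE, adjusted p = 8.33e-18), and its other probe differed by -4.69. ID3 was undetected in SW480 and read 12.11, 11.97 and 12.01 in HCT116, at least 98.3-fold lower in SW480. The receptor TGFBR2 read 8.69, 8.77 and 8.31 in SW480, against 10.10, 10.06 and 9.86 in HCT116 (difference -1.41 ± 0.11, SE). The ligand BMP7 was higher, with 11.43, 11.47 and 11.68 in SW480, against 7.12, 7.21 and 7.33 in HCT116 (difference 4.31 ± 0.09, SE).

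Targets of p53 had 8 lower and 4 higher of 20 measured, with 7 lower and 1 higher by at least 2-fold and a median difference of -0.11. The shares over all genes were 34.4% lower and 36.1% higher, and 14.3% and 14.1% by at least 2-fold. With median scaling the balance turned, to 7 lower and 9 higher. GDF15, a stress cytokine, was undetected in SW480 and read 10.59, 10.48 and 10.09 in HCT116, at least 31.4-fold lower in SW480. CDKN1A, the cell cycle inhibitor p21, read 10.11, 10.23 and 10.38 in SW480, against 11.94, 11.88 and 11.95 in HCT116 (difference -1.68 ± 0.09, SE). TP53INP1 differed by -2.82 ± 0.15 and RRM2B, a ribonucleotide reductase subunit, by -1.60 ± 0.12 (SE).

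Proliferation genes were higher in SW480, with 21 higher and 1 lower of 28 measured, 11 higher and none lower by at least 2-fold, and a median difference of 0.6. RRM2, which makes deoxyribonucleotides, read 10.97, 11.03 and 11.09 in SW480, against 9.36, 9.41 and 9.35 in HCT116 (difference 1.66 ± 0.09, SE). FOXM1, a mitotic transcription factor, differed by 1.55 ± 0.09, and the replication helicase subunits MCM4 and MCM2 by 1.52 ± 0.10 and 1.34 ± 0.10. Among 18 MYC targets of ribosome assembly, 12 were higher and 1 lower, but 1 was higher and none lower by at least 2-fold, fewer than the 14.1% and 14.3% of all genes. Of these, DKC1, which modifies ribosomal RNA, differed by 1.30 ± 0.07 and the RNA polymerase subunit POLR1C by -0.91 ± 0.10 (SE). The D-type cyclin CCND3 read 12.24, 12.07 and 12.27 in SW480, against 10.30, 10.14 and 10.23 in HCT116 (difference 1.97 ± 0.08, SE), and TOB1, an antiproliferative protein, differed by -1.94 ± 0.09.

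Of 6 measured mismatch repair genes, 3 were higher in SW480 and none lower. The exonuclease EXO1 differed by 1.06 ± 0.10, MSH6 by 0.88 ± 0.09 and PCNA by 0.52 ± 0.08 (SE), though the other PCNA probe differed by -0.01. MSH3 differed by 0.04 ± 0.13 at its brighter probe (adjusted p = 0.79) and by 3.08 at its other one. The mean of the MSH3 probes differed by 1.56 (adjusted p = 1.43e-09).

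Receptors and carriers of growth factors differed in both directions. Of 17 receptors measured, 10 were lower and 6 higher in SW480. FGFR3 read 5.62, 5.93 and 5.71 in SW480, against 10.15, 10.10 and 10.11 in HCT116 (difference -4.37 ± 0.12, SE), but its other probe differed by -0.05. MST1R, the receptor of macrophage-stimulating protein, was at least 6.72-fold lower, and ROR1, a Wnt5a receptor detected on 1 HCT116 array, differed by 2.50 ± 0.17. In the IGF axis, 7 of 10 measured genes were higher and 1 lower. One of the higher genes, the binding protein IGFBP2, lost its call without any 1 of the SW480 arrays (adjusted p = 0.0607 to 0.0724), without HCT116 replicate 2 (adjusted p = 0.0865) and without HCT116 replicate 3 (adjusted p = 0.242). IGF1R read 8.05, 8.27 and 8.50 in SW480 and was undetected in HCT116, at least 7.16-fold higher in SW480. The binding protein IGFBP7 read 9.90, 10.17 and 10.16 in SW480, against 5.58, 5.72 and 4.83 in HCT116, where 2 arrays detected it (difference 4.70 ± 0.18, SE). The single lower gene was the receptor substrate IRS1, with 7.06, 7.38 and 7.28 in SW480, against 10.90, 10.80 and 10.77 in HCT116 (difference -3.59 ± 0.11, SE).

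Feedback genes and ligands of the ERK pathway had 11 lower and 6 higher of 21 measured, and 6 lower and 8 higher with median scaling. The EGFR ligand EREG was undetected in SW480 and at least 19.3-fold lower there, and PHLDA1 read 8.41, 8.22 and 7.91 in SW480, against 12.70, 12.64 and 12.64 in HCT116 (difference -4.48 ± 0.10, SE). The ETS factor ETV4 differed by 2.93 ± 0.12 and FOS, part of the AP-1 factor, by 2.12 ± 0.13. In the Notch pathway, 11 of 19 measured genes were lower and 5 higher, and 7 lower and 6 higher with median scaling. The receptor NOTCH3 was at least 7.95-fold lower, and the target HEY2 read 9.55, 9.36 and 9.45 in SW480, was undetected in HCT116 and was at least 16.2-fold higher in SW480.

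Genes of the vitamin D system were compared in vehicle alone. Of 12 measured, 5 were higher and 4 lower, near the 36.1% and 34.4% of all genes. VDR, the receptor, read 6.64, 6.97 and 7.33 in SW480, against 5.57, 5.65 and 5.27 in HCT116, where 2 arrays detected it (difference 1.48 ± 0.18, SE). CYP24A1, which inactivates calcitriol and is induced by it, averaged 9.16 ± 0.15 in SW480 and 11.16 ± 0.07 in HCT116 (SD, n = 3 each; difference -2.01 ± 0.10, SE). The activating hydroxylase CYP27B1 differed by -1.78 ± 0.16 and the sterol hydroxylase CYP27A1 by 3.72 ± 0.16.

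Interferon response genes had 10 lower and 7 higher of 25 measured, beside 34.4% and 36.1% of all genes. By at least 2-fold, 9 were lower and 7 higher, beside 14.3% and 14.1%. Of the 25, 6 were detected in 1 line alone, 3 in each line. With median scaling 10 were lower and 11 higher. IFITM1, an antiviral membrane protein, read 11.67, 11.88 and 11.84 in SW480, against 6.29, 4.94 and 5.48 in HCT116, where 2 arrays detected it (difference 6.22 ± 0.22, SE). BST2, tetherin, detected on 2 HCT116 arrays, differed by 3.21 ± 0.19, IFIT2, detected on 1 SW480 array, by -2.15 ± 0.15, and the RNA sensor IFIH1 was at least 4.13-fold lower. In class I antigen presentation, 8 of 15 were lower and 3 higher. HLA-B read 8.91, 9.14 and 9.25 in SW480, against 11.12, 11.13 and 10.77 in HCT116 (difference -1.91 ± 0.12, SE), and the immunoproteasome subunit PSMB8 was at least 8.13-fold higher in SW480, with other probes at 3.09 and 1.56. Probes of HLA genes can differ between lines by allele, which was not tested. Among 17 NF-kB and inflammatory genes, 7 were higher and 3 lower, beside 36.1% and 34.4% of all genes. Of the 17, 6 were detected in 1 line alone, 5 of them in SW480, so their direction follows from the rule. Over the 11 detected in both lines, 2 were higher and 2 lower, and the median was 0.02. The acute-phase gene SAA1 was at least 5.28-fold and the cytokine IL32 at least 5.26-fold higher, both undetected in HCT116. The other IL32 probe differed by 1.29.

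HOX genes, which set position along the body, were mostly higher in SW480. Of 22 measured, 16 were higher and 3 lower, with 11 higher and 1 lower by at least 2-fold and a median difference of 0.89. Over the 17 detected in both lines, 6 were higher and 1 lower by at least 2-fold, with a median of 0.60. HOXB2 read 10.44, 10.24 and 10.53 in SW480, against 5.02, 4.78 and 5.45 in HCT116, where 1 array detected it (difference 5.32 ± 0.16, SE). HOXC8, detected on 2 HCT116 arrays, differed by 3.52 ± 0.12 and HOXC4 by 2.45 ± 0.19, and HOXD11 was at least 6.92-fold higher. Of 28 cancer-testis antigens with a named probe, 10 passed the rule, and 7 of these were detected in HCT116 alone, so their direction follows from the rule. MAGEA6 was undetected in SW480 and at least 13.3-fold lower there, MAGEA3 at least 10.6-fold lower and PRAME at least 9.32-fold lower. MAGEA3 and MAGEA6 are near-identical in sequence and their probes may not tell them apart.

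Metabolic and conjugating enzymes held several large differences. GSTT1, a glutathione transferase, read 10.08, 10.30 and 10.40 in SW480, against 4.75, 5.42 and 4.68 in HCT116, where 1 array detected it (difference 5.31 ± 0.15, SE). ABCC2, an efflux pump of conjugates, was undetected in SW480 and read 10.99 to 11.05 in HCT116, at least 48.5-fold lower in SW480. The quinone reductase NQO1 differed by -1.79 ± 0.09 and the aldo-keto reductase AKR1C3, detected on 1 SW480 array, by -3.68 ± 0.13. Of 19 hypoxia and glycolysis genes, 9 were lower and 4 higher. The glucose transporter SLC2A3, given above, was among the higher ones at 6.02 ± 0.11 (SE). BNIP3, a mitophagy receptor, read 5.76, 5.50 and 5.67 in SW480, against 12.09, 12.09 and 11.92 in HCT116 (difference -6.39 ± 0.14, SE), and the aldolase ALDOC and the peptide ADM differed by -4.28 ± 0.09 and -2.96 ± 0.07.

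Calcium-binding S100 proteins and annexins had 12 lower and 6 higher of 18 measured, 9 lower and 3 higher by at least 2-fold, with a median difference of -0.81. With median scaling 4 were lower by at least 2-fold. ANXA1 read 9.73, 9.42 and 9.56 in SW480, against 12.88, 13.07 and 12.79 in HCT116 (difference -3.34 ± 0.12, SE), S100A14 differed by -2.61 ± 0.16 and S100A3 by 3.26 ± 0.13. Other short lists are given beside the 14.1% of all genes at least 2-fold higher and the 14.3% at least 2-fold lower. By that measure, 2 of 19 chromatin regulators were higher and none lower, and 2 of 20 apoptosis regulators were higher and 2 lower. Cholesterol synthesis had 1 of 12 higher. Metallothioneins had none of 6 in either direction, though another MT1E probe differed by -1.77. These counts are descriptions.

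In some stretches, most neighbouring genes differed the same way. How far such runs would arise in a shuffled gene order was not tested. Over 12276 genes placed in chromosome order, the chromosome medians ran from -0.46 for chromosome 8 to 0.47 for the X. On chromosome 8, 58.2% of 431 genes were lower and 16.9% higher in SW480. On chromosome 20, 57.8% of 351 genes were higher and 16.5% lower, and on the X 57.9% of 439 were higher. Running medians over 25 neighbouring genes had a 5th percentile of -0.57 and a 95th of 0.6. The lowest was -1.33, on chromosome 8 from CPNE3 to PLEKHF2, where 22 of 25 genes were lower and 2 higher. On chromosome 18, the stretch from IMPACT to PSTPIP2 had a median of -1.21 and holds DSC2, DSC3 and DSG2, and that from C18orf32 to NEDD4L had one of -1.03 and holds SMAD4. CA2 closes a chromosome 8 stretch with a median of -1.18, and ANXA10 lies in a chromosome 4 stretch with one of -1.13.

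The highest running median was 1.48, on the X from CA5B to MBTPS2, where all 25 genes were above 0 and 21 were higher at the threshold. A chromosome 12 stretch from SLC6A12 to DYRK4 had 1.10 and holds CCND2 and FOXM1, and a chromosome 5 stretch from PPARGC1B to HAND1 had 1.16 and holds PDGFRB and SPARC. On chromosome 20, MYL9 to PLCG1 had 1.02, with 21 of 25 genes higher. The stretches were picked by their value, so they are given with no test. On the calcitriol arrays their medians were -1.39 for the lowest and 1.41 for the highest.

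**Figure D4:**
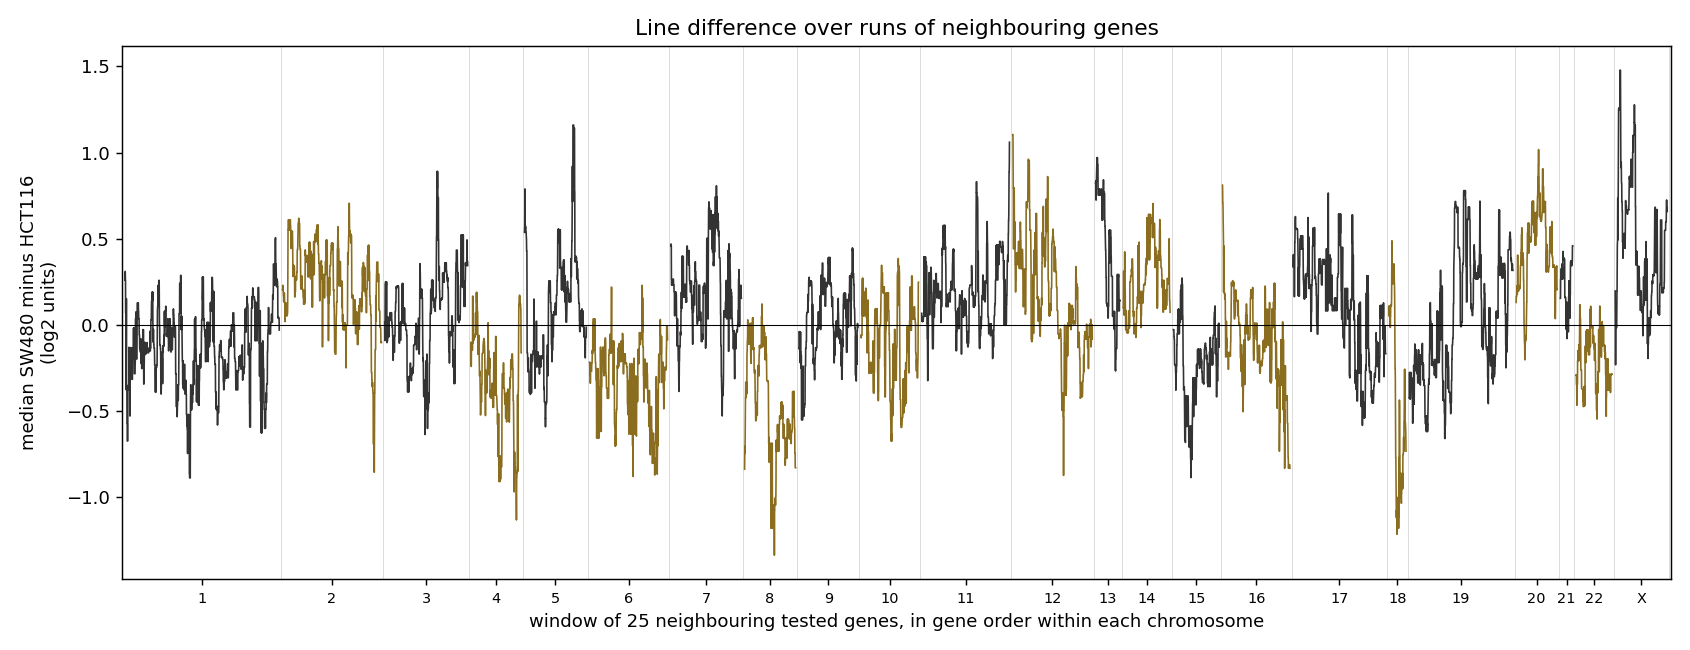
Running median of the difference SW480 minus HCT116 (log2 units, vertical axis) over 25 neighbouring genes, in gene order along the chromosomes (horizontal axis). The line falls to -1.33 on chromosome 8 and reaches 1.48 on the X.

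The comparison was repeated on the calcitriol arrays. There, 8704 genes differed between the lines (70.8%). Of the 8658 called in ethanol, 7559 (87.3%) were called in the same direction and 36 in the opposite one. Of the 3488 that were at least 2-fold apart in ethanol, 3483 had the same sign and 3458 were called the same way. Among genes detected on all 6 ethanol arrays, VIM differed by 4.79 on the calcitriol arrays and 4.60 on the ethanol arrays, AXIN2 by 2.63 with calcitriol and 2.81 with ethanol, and CDH3 by -4.60 with calcitriol and -4.65 with ethanol. The line difference itself changed with calcitriol at 412 genes (3.35%). That number fell to 147 with only the compared arrays fitted. Leaving out 1 array, it fell to 265 without SW480 ethanol replicate 1, 147 without SW480 ethanol replicate 2, 194 without HCT116 ethanol replicate 1 and 163 without HCT116 ethanol replicate 3. It fell to 173 and 206 without SW480 calcitriol replicates 1 and 2, and to 209 and 220 without HCT116 calcitriol replicates 1 and 3. For CDH1 it was -1.64 with calcitriol and -2.46 with ethanol, a change of 0.83 log2 units (adjusted p = 0.00449), and with median scaling a change of 0.63 (adjusted p = 0.0595). For IGFBP5, a growth factor carrier, it was 1.71 with calcitriol and 2.78 with ethanol, a change of -1.07 (adjusted p = 0.00421).

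**Figure D5:**
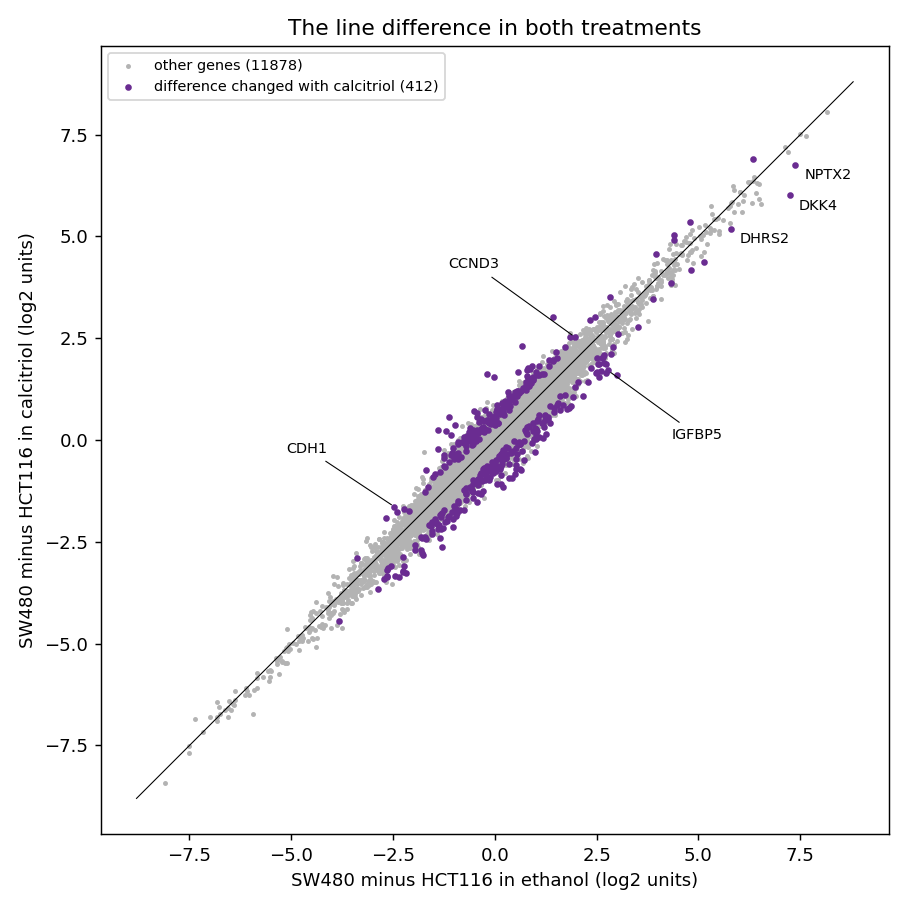
Difference SW480 minus HCT116 in log2 units for each gene on the calcitriol arrays (vertical axis) and on the ethanol arrays (horizontal axis). Of 3488 genes at least 2-fold apart in ethanol, 3483 keep their sign, and the 412 genes whose line difference changed with calcitriol are marked.

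Most genes were read by 1 probe, and 3246 by several. Among genes at least 2-fold apart, 1155 other probes passed the rule, of which 1053 had the same sign and 764 were also at least 2-fold apart in the same direction. Other probes gave a smaller difference of the same sign for CCND2 (6.13), MAGEB2 (-5.88), CA2 (-4.10), PHLDA1 (-3.31) and MAGEA6 (-2.60 and -2.90). Tested probe by probe, an alternative chosen after seeing the data, 5906 of the 16375 probes were higher and 5492 lower in SW480.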

How the data were processed

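Total RNA of each sample was amplified to biotin-labelled cRNA, per the labels' protocols. The authors deposited a linear probe intensity with a detection p-value for each array, not normalized, per the file headers; 887 rows without a probe identifier were left out. The authors also deposited a log2 table, for which the submitters' processing notes name limma with no version. Values computed here from the raw intensity differed from it by a median of 0.00326 and at most 0.205.

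Background was corrected from the detection p-values (offset 16) and 18 arrays were quantile-normalized with neqc of limma 3.58.1 in R 4.3.3. Probe names came from the platform annotation (30113 with 1 gene symbol, 8 with several, 17202 not listed), 30074 updated through Entrez identifiers to the RefSeq table of GRCh38.p14. Each gene was read by its brightest passing probe. One limma model (lmFit, eBayes) held the 6 group means of all 18 arrays, with Benjamini-Hochberg adjustment over 12290 genes and a threshold of 0.05. SE is that of the moderated fit. For a bound, the dim line's arrays each count at the lowest detected level, or at their own value if that is larger. Levels of different probes were not compared. The number of arrays limits the precision.

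Named genes are the 10 largest differences and 10 largest bounds in each direction without overlap, up to 4 called members of each of 38 lists (528 of 771 listed genes were tested; short lists may be given whole), and CDH1, VIM, EPCAM, CDX2, VDR, CYP24A1, CDKN1A, MYC, AXIN2 and TGFBR2. Members and lists were chosen with earlier results of these data known. Alternatives were the deposited table, scaling, background, filters, probe choice, arrays fitted, eBayes settings, a replicate block and leaving out arrays. The fit was tested on simulated data.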

Additional observations from a re-analysis of the deposited data

Results flagged for a closer look

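At 7 named genes the difference between SW480 and HCT116 itself differed between the calcitriol and the ethanol arrays, by the interaction test of limma over all genes. The change, calcitriol minus ethanol, was 0.83 log2 units for CDH1 (adjusted p = 0.00449), 0.56 for CCND3 (adjusted p = 0.0214) and 0.51 for CDCA7 (adjusted p = 0.0356). It was -1.23 for DKK4 (adjusted p = 0.00343), -1.07 for the binding protein IGFBP5 (adjusted p = 0.00421), -0.62 for NPTX2 (adjusted p = 0.017) and -0.60 for DHRS2 (adjusted p = 0.0366). The call was lost in 8 of 22 alternative settings for CCND3, in 11 for DHRS2 and in 13 for CDCA7. It was lost in 1 setting each for CDH1 and NPTX2. At each of the 7, the difference kept its sign on both sets of arrays: for IGFBP5 it was 1.71 with calcitriol and 2.78 with ethanol, and for CCND3 2.53 with calcitriol and 1.97 with ethanol. DKK4 and NPTX2 were detected on no HCT116 array with either treatment, so both of their differences are set against readings not above background. Replicate groups of 3 were not searched for single outlying arrays.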

How the results depend on the processing

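The counts of genes higher and lower in ethanol were within 1.5 times of the main ones under every alternative run, and leaving out 1 array gave 4185 to 4316 higher and 4033 to 4083 lower. Counts at 2-fold moved with detection on all 6 arrays (1034 higher and 1129 lower in ethanol, 1124 and 1252 in calcitriol) and with no background correction (870 and 964 in ethanol, 928 and 1053 in calcitriol). The genes whose line difference changed with calcitriol, 181 higher and 231 lower, of which 14 and 30 by at least 2-fold, depended most on the setting. They were 317 and 352 with no background correction (2 and 1 by 2-fold), 93 and 139 with no filter, 21 and 474 with median scaling (9 and 121 by 2-fold), 52 and 95 with only the compared arrays fitted (9 higher by 2-fold), and 284 higher with a trended robust prior. Leaving out 1 array gave 53 to 181 higher, 94 to 251 lower, 9 to 18 higher by 2-fold and 21 to 44 lower by 2-fold. The cause was not tested. Same-numbered arrays of the lines did not deviate together (correlations of -0.026 to 0.07 in ethanol), and with replicate number as a block 4402 genes were higher and 4191 lower; the block changed no call among 224 named genes. Genes that missed the threshold and changed sign were KRT8 (0.20 with median scaling), MSH3 (-0.01) and PMS1 (0.06) with median scaling too, and DSP (-0.10) over the mean of probes. MUC1 missed it too, reversed past it over the mean of probes (0.20, adjusted p = 0.045) and passed it the other way without HCT116 replicate 1 (-0.43, adjusted p = 0.02). Leaving out 1 array gave -0.13 to 0.05 for KRT8, -0.01 to 0.08 for MSH3, -0.37 to 0.26 for PMS1, -0.02 to 0.06 for DSP, -0.23 to 0.29 for INSM1, -0.31 to 0.18 for MUC2 and -0.11 to 0.15 for RETNLB. Of the changes with calcitriol at 7 named genes, none reversed in 21 or 22 alternatives; DKK4 and IGFBP5 kept their call in all of them, CDH1 lost it with median scaling and NPTX2 with only the compared arrays fitted (adjusted p = 0.053), CCND3 lost it in 8, DHRS2 in 11 and CDCA7 in 13.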
